A study of Mus musculus with 32 samples.

Results

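The genes described here are 6 genes of the muscle cell lineage. They are *Pax7*, the transcription factor of muscle stem cells, the 4 myogenic regulatory factors *Myf5*, *Myod1*, *Myog* and *Myf6*, and *Mymk*, a membrane protein of myoblast fusion. These 6 genes were taken by name from a table of 54838 genes, and all 6 passed the filter on low counts at every age. RNA came from the tibialis anterior (TA), a fast muscle of the lower hindlimb, of WT mice and of *Mtm1* KO mice, a model of X-linked myotubular myopathy. Each genotype was sampled at postnatal day 1 (P1), P14, P21 and P35, with n=4 libraries per genotype and age, which gave 32 libraries in 8 groups. The titles number the libraries as replicates, and each was taken to come from 1 mouse. Both genotypes were on the C57BL6/J background. The KO allele carries a deletion that removes *Mtm1* exon 4 sequence in every cell of the body and shifts the reading frame, and the line was made on 129S2PAS before it was moved to C57BL6/J. The labels call the tissue skeletal muscle, and the muscle itself is named only in the study's text.

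Satellite cells are the stem cells that lie beside muscle fibres, and they are known by *Pax7*. *Myf5* is an early factor of both satellite cells and myoblasts. When a satellite cell is activated it makes *Myod1* and divides as a myoblast. It then makes *Myog* (myogenin) as it leaves the cell cycle and differentiates. Myoblasts fuse into fibres through *Mymk* (myomaker) together with *Mymx* (myomixer). *Myf6* (MRF4) is made mostly in the nuclei of fibres, and *Myog* and *Myod1* are also made there, where loss of nerve input is known to raise *Myog*.

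In the KO muscle, *Myog* and *Myf6* were higher and *Pax7* was lower than in WT at P21 and P35, and none of the 6 genes passed the test at P1 or P14. *Myog* reached 5.03 times the WT mean at P35, whereas *Pax7* stood at 0.364 times the WT mean. *Myod1*, *Myf5* and *Mymk* did not pass the test at P21 or P35 with the main settings. At P21 *Myf6* passed narrowly (edgeR adjusted *P*=0.00960) and *Myod1*, also higher in KO, missed narrowly (edgeR adjusted *P*=0.0102). Each passed at P21 in 7 of 10 alternative analyses. With 1 of the 8 libraries left out, *Myf6* passed in 1 case and *Myod1* in 2. Because the RNA came from whole muscle, fewer cells of a type and less RNA per cell cannot be told apart.

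The 6 genes lie on 5 chromosomes and overlap no other annotated gene (GENCODE M21, GRCm38). *Myog* (ENSMUSG00000026459) lies on the plus strand at chr1:134289989-134292548, *Myod1* (ENSMUSG00000009471) on the plus strand at chr7:46376474-46379099 and *Mymk* (ENSMUSG00000009214) on the minus strand at chr2:27061636-27072179. *Pax7* (ENSMUSG00000028736) lies on the minus strand at chr4:139737062-139833528. *Myf5* (ENSMUSG00000000435, chr10:107482908-107486134) and *Myf6* (ENSMUSG00000035923, chr10:107492853-107494737) are neighbours on the minus strand of the same chromosome, with 6.72 kb between them. In the RefSeq table of promoters (GRCm38.p6) *Myog*, *Myf5* and *Pax7* had an entry, and *Myod1*, *Myf6* and *Mymk* did not. The 250 bases before the RefSeq start are shown for *Myog*, the gene with the largest difference, and for *Myf5*, which comes early in the lineage. The *Pax7* window lies inside the first exon of a longer GENCODE transcript and is not shown. Capitals mark matches to the E-box CANNTG, the site that myogenic factors bind with their E protein partners, and to the MEF3 site TCAGGTT, a known element of muscle promoters. Both strands were searched, and N is any base. The windows are chr1:134289754-134290003 on the plus strand for *Myog* and chr10:107486135-107486384 on the minus strand for *Myf5*, each written 5′ to 3′ along the gene's strand. GENCODE starts *Myog* at 134289989, so the last bases of its window lie in the first exon (5′ UTR) of that model.
Myog: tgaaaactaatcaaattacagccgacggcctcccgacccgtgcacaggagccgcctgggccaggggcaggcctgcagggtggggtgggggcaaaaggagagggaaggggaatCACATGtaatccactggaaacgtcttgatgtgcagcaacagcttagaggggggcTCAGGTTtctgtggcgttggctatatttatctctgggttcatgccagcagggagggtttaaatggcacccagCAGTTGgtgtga
Myf5: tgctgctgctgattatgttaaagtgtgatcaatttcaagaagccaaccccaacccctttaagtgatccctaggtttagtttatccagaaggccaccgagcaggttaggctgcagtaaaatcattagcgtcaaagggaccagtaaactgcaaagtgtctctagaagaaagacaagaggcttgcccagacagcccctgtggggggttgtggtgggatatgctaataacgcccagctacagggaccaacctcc
The *Myog* window held 2 E-boxes, CACATG from -138 to -133 and CAGTTG from -12 to -7 (base -1 is the last before the start), and 1 MEF3 site from -84 to -78. The *Myf5* window held no match to either motif. The motifs did not overlap each other. Of 32851 RefSeq promoter windows of the same length, 66.2% held an E-box, with a median of 1 per window, and 3.49% held the MEF3 letters. The narrower E-box CAGCTG was in neither window and in 13% of all. A match describes the letters in the window and is not evidence of binding.

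Libraries held between 49321035 and 85631408 expected counts, and the lowest counts of the 6 genes in a library were 34 for *Mymk* (WT replicate 1 at P21) and 58 for *Myf5* (KO replicate 4 at P35). Levels are given in CPM (counts divided by the TMM-scaled size of the library, over all 32 libraries). *Mtm1* itself was 18.9 to 24.9 CPM in WT and 2.64 to 4.51 CPM in KO libraries from P14 on. At P1 it was 5.26 to 6.01 CPM in WT and 2.32 to 3.91 CPM in KO, so that the genotypes did not overlap at any age, although it was not called at P1 (log2 fold change -0.98, edgeR adjusted *P*=0.0668). The 8 myofibre markers were detected in every group, at a summed level of 19334 to 36202 CPM at P1 and 79605 to 199354 CPM later. Genes of the mitochondrial genome took 10.3% to 10.5% of counts in KO and 12.35% to 17.88% in WT at P35, and fits without these genes gave the same calls for the 6 genes at each age. The 4 keratinocyte markers summed to 1470 to 5706 CPM at P1 and to 2.46 to 6.16 CPM at later ages. At P1, KO replicate 4 and WT replicate 1 each had the lowest level of their group for all 6 genes, and these libraries also had the lowest summed myofibre markers of their groups (19334 and 27245 CPM).

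*Pax7*, the satellite cell factor, was lower in KO muscle than in WT at P21 and P35. At P1 its level in replicates 1 to 4 was 10.8, 16.2, 13.4 and 14.8 CPM in WT mice and 13.5, 15.8, 15.2 and 6.97 CPM in KO mice. At P14 it was 12.0, 12.8, 9.25 and 7.98 CPM in WT mice and 11.8, 10.3, 8.90 and 6.42 CPM in KO mice. The genotypes overlapped at both ages, and KO replicate 4 was the lowest library at each of them. At P21 *Pax7* was 7.71, 6.47, 6.69 and 6.08 CPM in WT mice and 4.33, 3.33, 3.88 and 2.71 CPM in KO mice. By P35 it was 4.57, 5.52, 5.15 and 5.63 CPM in WT mice and 2.32, 1.89, 1.44 and 1.96 CPM in KO mice. The KO libraries all lay under the lowest WT library at P21 and again at P35.

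A gene counted as called where the adjusted *P*-value of edgeR's quasi-likelihood test, corrected over all genes by the Benjamini-Hochberg method, was under 0.01 and the change was over 1.5-fold either way. *Pax7* was called lower at P21, with a log2 fold change of -0.91 (SE 0.15, edgeR adjusted *P*=0.00348). At P35 the log2 fold change was -1.43 (SE 0.16, edgeR adjusted *P*=2.48e-04). It was the only 1 of the 6 genes called lower at either age. Of all genes tested, 1.50% were called lower at P21 and 7.52% at P35. At P1 and P14 the log2 fold changes of *Pax7* were -0.09 (SE 0.23) and -0.16 (SE 0.21), with edgeR adjusted *P*=0.898 and 0.964. Same-numbered libraries of P14 deviated together, but the tests at P14 left the replicate number out except where a block is named.

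*Myf5*, an early factor of satellite cells and myoblasts, had the same order of groups late on but did not pass the test. At P21 it was 3.81, 2.95, 2.51 and 3.29 CPM in WT mice and 2.15, 1.85, 1.95 and 1.89 CPM in KO mice. At P35 it was 1.80, 1.64, 3.58 and 1.50 CPM in WT mice and 1.19, 1.45, 1.29 and 1.03 CPM in KO mice. The KO libraries lay below all WT libraries at both ages, narrowly so at P35 (highest KO 1.45 and lowest WT 1.50 CPM). Scaled by library totals, the genotypes overlapped at P35, with 0.993 to 1.52 CPM in KO and 1.09 to 2.73 CPM in WT. WT replicate 3 at P35 was far above the other WT libraries of that age. The log2 fold change was -0.67 (SE 0.14, edgeR adjusted *P*=0.0115) at P21 and -0.76 (SE 0.29, edgeR adjusted *P*=0.0612) at P35. Without that WT library the value at P35 was -0.39 (edgeR adjusted *P*=0.146). Non-overlapping libraries were common at these ages, with 24.7% of all genes tested at P21 and 39.6% at P35. At P1 and P14 the genotypes overlapped, with 7.04 to 10.9 CPM and 3.27 to 5.01 CPM over both genotypes. With DESeq2 in place of edgeR, *Myf5* was called lower at P21 (log2 fold change -0.69, DESeq2 adjusted *P*=8.87e-04).

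*Myod1*, which commits activated cells to the muscle lineage, stayed between 16.6 and 56.0 CPM over all 32 libraries. At P14 it was 40.9, 44.8, 43.0 and 26.9 CPM in WT mice and 51.7, 50.9, 56.0 and 46.1 CPM in KO mice. Every KO library was above every WT library, as was the case in one direction or the other for 4.84% of all genes tested at that age. The log2 fold change was 0.39 (SE 0.15, edgeR adjusted *P*=0.656), which did not pass the test. Among genes of this age the same-numbered libraries deviated together, and blocking on the replicate number gave *Myod1* an edgeR adjusted *P*-value of 0.0162.

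At P21 *Myod1* was 22.1, 20.8, 31.3 and 16.6 CPM in WT mice and 55.8, 42.9, 54.0 and 32.4 CPM in KO mice. The KO libraries were again all above the WT libraries, and the log2 fold change of 1.04 (SE 0.22) missed the threshold narrowly (edgeR adjusted *P*=0.0102). It passed in 7 of 10 alternative analyses, among them DESeq2 (adjusted *P*=3.77e-05), of which 1 only relaxed the threshold. At P35 the levels were 28.9, 30.6, 20.4 and 27.6 CPM in WT mice and 37.0, 27.5, 49.2 and 43.8 CPM in KO mice. KO replicate 2 fell within the WT range, and the log2 fold change was 0.58 (SE 0.18, edgeR adjusted *P*=0.0293). Without that library *Myod1* passed the test (log2 fold change 0.71, edgeR adjusted *P*=0.00586). At P1 the genotypes overlapped at 23.4 to 42.6 CPM.

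*Myog*, the factor of terminal differentiation, had the largest KO difference of the 6 genes. At P1 it was 96.6, 128, 107 and 119 CPM in WT mice and 122, 138, 143 and 94.1 CPM in KO mice. At P14 it was 67.5, 65.2, 54.4 and 30.8 CPM in WT mice and 64.5, 73.9, 67.1 and 43.9 CPM in KO mice. The genotypes overlapped at both ages, and replicate 4 was the lowest library of each genotype at P14. The log2 fold changes were 0.16 (SE 0.14, edgeR adjusted *P*=0.698) at P1 and 0.19 (SE 0.25, edgeR adjusted *P*=0.964) at P14.

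At P21 *Myog* was 17.2, 9.22, 20.6 and 12.4 CPM in WT mice and 33.5, 43.3, 37.4 and 36.3 CPM in KO mice. By P35 it was 10.5, 20.1, 11.3 and 11.9 CPM in WT mice and 42.6, 64.3, 101 and 61.8 CPM in KO mice. The lowest KO library was above the highest WT library at both ages, and KO replicate 3 at P35 lay within the range of P1. *Myog* was called higher at P21, with a log2 fold change of 1.35 (SE 0.22, edgeR adjusted *P*=0.00349). At P35 the log2 fold change was 2.35 (SE 0.29, edgeR adjusted *P*=3.23e-04). Of all genes tested, 3.18% were called higher at P21 and 8.49% at P35, and 2 of the 6 genes, *Myog* and *Myf6*, were called higher at each of these ages. The WT mean was 112.5 CPM at P1 and 13.4 CPM at P35, so the KO mean of 67.5 CPM at P35 stood between the WT means of P1 and P14 (54.5 CPM).

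*Myf6*, the factor of the fibre nuclei, was the only 1 of the 6 genes called higher at P14 than at P1, in both genotypes, a call that was lost with library totals. Its level over both genotypes was 30.8 to 60.9 CPM at P1 and 72.9 to 132 CPM at P14, with overlap of the genotypes at both ages. At P21 it was 86.4, 73.4, 57.8 and 68.4 CPM in WT mice and 102, 126, 118 and 92.3 CPM in KO mice. By P35 it was 87.5, 90.8, 77.2 and 95.1 CPM in WT mice and 156, 109, 167 and 148 CPM in KO mice. All KO libraries were above all WT libraries at both ages.

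*Myf6* was called higher at P35, with a log2 fold change of 0.75 (SE 0.13, edgeR adjusted *P*=0.00158). At P21 the log2 fold change of 0.63 (SE 0.13) passed narrowly (edgeR adjusted *P*=0.00960). That call at P21 was lost with the replicate block (edgeR adjusted *P*=0.0166), with all 32 libraries in 1 fit (0.0226) and with RLE size factors (0.0111), and it held when 1 of the 8 libraries was left out but not in the other 7 cases. The log2 fold change at P21 stayed between 0.53 and 0.71 in all 8 cases. *Myf5*, its neighbour on chromosome 10, had log2 fold changes of the opposite sign at both ages.

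*Mymk*, the fusion protein, fell steeply after birth and was low in both genotypes from P21. Over both genotypes it was 30.9 to 66.0 CPM at P1 and 11.2 to 25.8 CPM at P14. At P21 it was 0.835, 2.09, 3.96 and 2.24 CPM in WT mice and 5.12, 4.60, 3.55 and 5.36 CPM in KO mice. At P35 it was 2.34, 4.28, 2.75 and 4.13 CPM in WT mice and 4.02, 3.51, 8.82 and 5.40 CPM in KO mice. The genotypes overlapped at each age, and *Mymk* did not pass the test at P21 (log2 fold change 1.03, SE 0.37, edgeR adjusted *P*=0.0750) or P35 (log2 fold change 0.71, SE 0.31, edgeR adjusted *P*=0.0918).

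**Figure D1:**
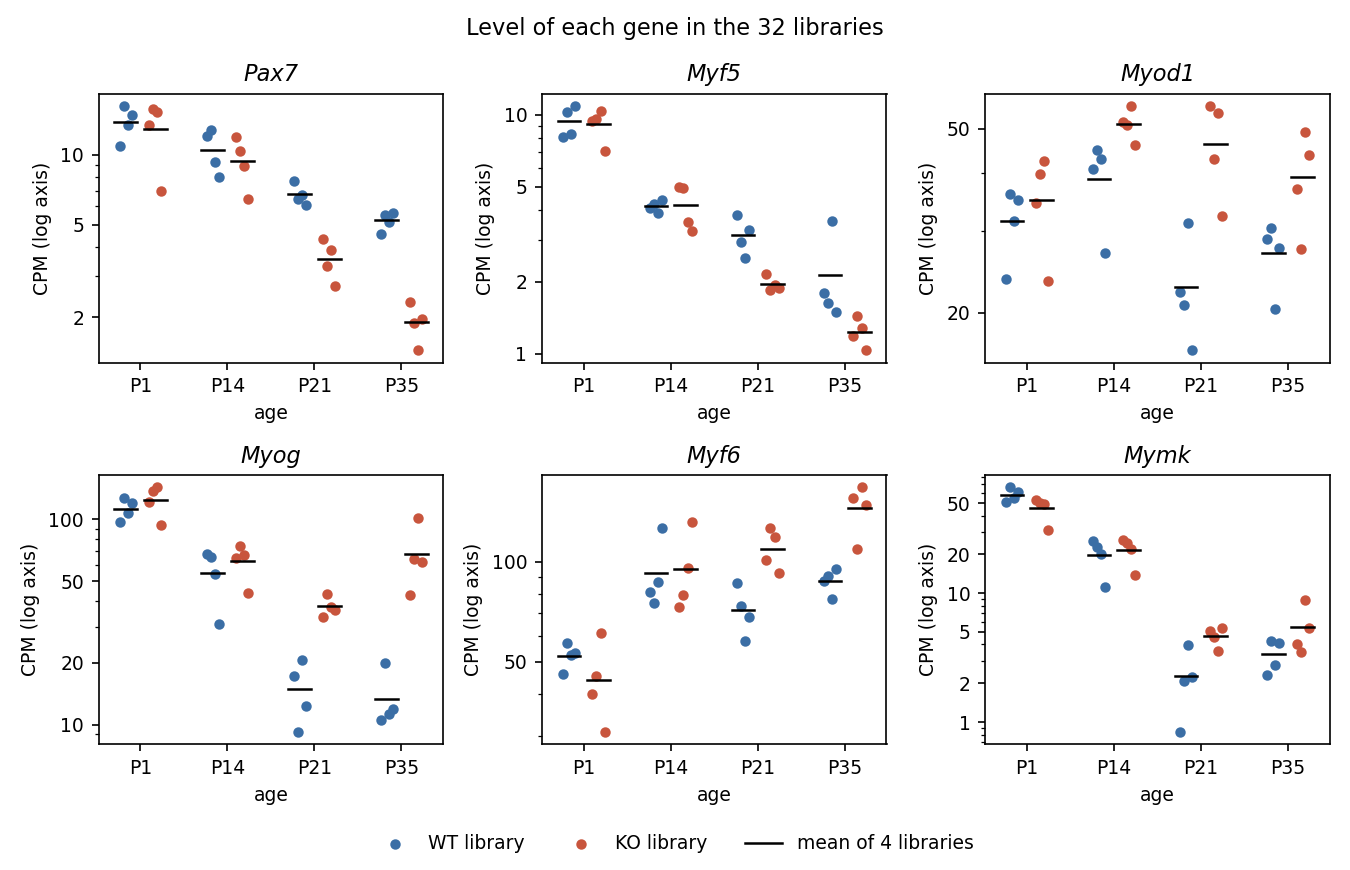
Level of each of the 6 genes in CPM on a log axis, by age, with 1 point per library (blue for WT, red for KO, n=4 per group) and a black line at the mean. WT and KO points are interleaved at P1 and P14 for 5 of the 6 genes, *Myod1* at P14 being the exception, and the KO points of *Myog* and *Myf6* lie above and those of *Pax7* and *Myf5* below all WT points at P21 and P35.

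None of the 6 genes was called at P1 or P14 by edgeR or DESeq2, and at an unadjusted edgeR *P*-value under 0.05 there were 0 and 1 of the 6. Over all genes tested, 1978 of 18100 at P1 and 1072 of 15728 at P14 were under that value. Few genes were called at these ages in all, 0.0442% of those tested at P1 and 0.0318% at P14. At P14 these were 5 genes, against 98 with the replicate number as a block, and none of the 6 was among the calls in either fit. Without KO replicate 4, the library at P1 that was lowest for all 6 genes, the log2 fold changes at P1 ran from -0.18 for *Mymk* to 0.32 for *Myod1* and none was called. Leaving out a library changed more at P21. Without KO replicate 2 none of the 6 genes was called at that age, and the edgeR adjusted *P*-value was 0.0122 for *Myog* and 0.0128 for *Pax7*, with log2 fold changes of 1.27 and -0.88. Without KO replicate 4 *Myog* (edgeR adjusted *P*=0.0102) and without WT replicate 1 *Pax7* (edgeR adjusted *P*=0.0118) also lost the call at P21. At P35 *Myog*, *Myf6* and *Pax7* kept the call in each of the 8 cases with a library left out.

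**Figure D2:**
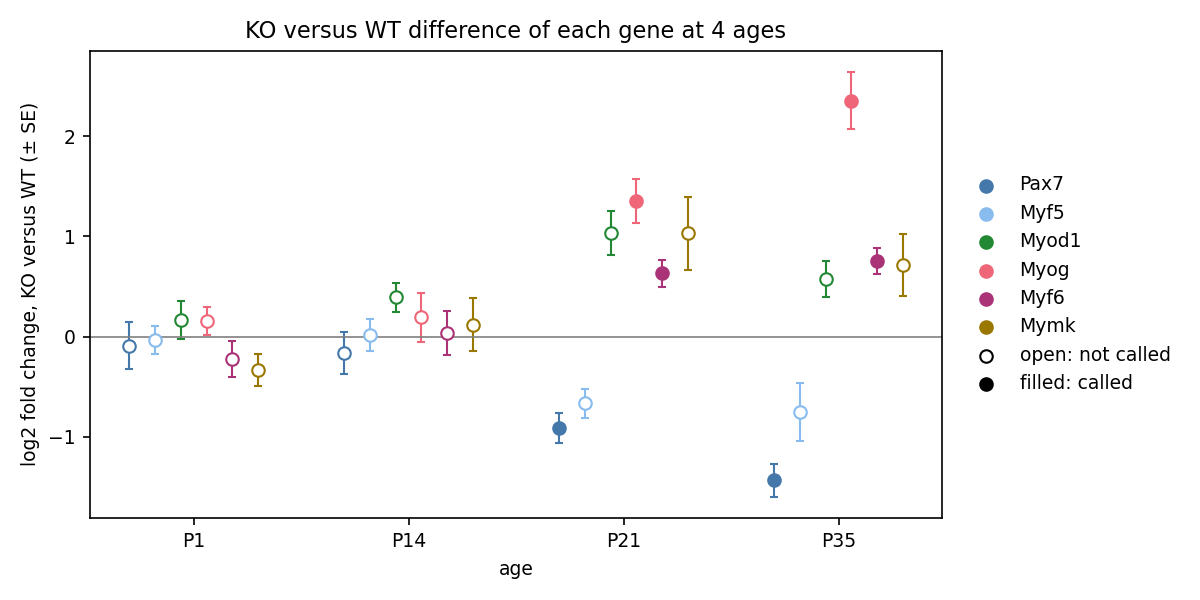
Difference between KO and WT for each gene at the 4 ages as the log2 fold change with its SE from edgeR, filled where the gene was called (adjusted *P* under 0.01 and over 1.5-fold) and open where it was not. All values at P1 and P14 lie between -0.33 and 0.39, and at P35 *Myog* stands at 2.35 and *Pax7* at -1.43.

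The change of the KO difference from 1 age to the next was tested as an interaction in a fit of all 32 libraries. None of the 6 genes was called for P14 versus P1, for P21 versus P14 or for P35 versus P21, where 0, 5 and 1 of them had an unadjusted edgeR *P*-value under 0.05. Of all 18583 genes, 1200, 2398 and 3241 had an unadjusted edgeR *P*-value under 0.05 in these tests. At the adjusted threshold 0.0161%, 0.425% and 0.463% of all genes passed. For *Myog* the KO difference grew by 1.15 (SE 0.36) on the log2 scale from P14 to P21 and by 0.99 (SE 0.36) from P21 to P35, with edgeR adjusted *P*=0.119 and 0.150. Over the wider span from P14 to P35, a comparison added after the other results were known, the KO difference of *Myog* grew by 2.13 (SE 0.36, edgeR adjusted *P*=1.90e-04). That of *Pax7* moved by -1.30 (SE 0.30, edgeR adjusted *P*=0.00358), and 8.53% of all genes passed this test. Without KO replicate 3 at P35 the value for *Pax7* was -1.19 and missed the threshold (edgeR adjusted *P*=0.0114), and with library totals it was -0.96 and missed it too (edgeR adjusted *P*=0.0243). *Myod1*, *Myf5*, *Myf6* and *Mymk* did not pass it.

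The ages were also compared within each genotype, and comparisons that share a group of libraries are not independent of each other. In WT muscle *Myog*, *Myf5* and *Mymk* were called lower at P14 than at P1, with log2 fold changes of -1.06 (SE 0.21), -1.19 (SE 0.11) and -1.56 (SE 0.21), and *Myf6* was called higher with 0.81 (SE 0.15). In KO muscle the same 4 genes were called in the same directions, with -1.02 (SE 0.18), -1.15 (SE 0.18), -1.11 (SE 0.22) and 1.07 (SE 0.23). With library totals, which moved the median of all genes to -0.85 in WT and -0.81 in KO, the values of *Myf6* were 0.026 (edgeR adjusted *P*=0.830) and 0.35 (edgeR adjusted *P*=0.0877). Over this interval most genes differed. In WT 30.4% of genes tested were called lower and 24.7% higher, and in KO 29.1% and 23.5%. The keratinocyte markers were high only at P1, as given above, and their part in these age differences was not tested.

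From P14 to P21, *Mymk* and *Myog* were called lower in WT, with log2 fold changes of -3.12 (SE 0.41) and -1.88 (SE 0.29). In KO the genes called lower were *Mymk* at -2.23 (SE 0.21), *Pax7* at -1.41 (SE 0.21), *Myf5* at -1.11 (SE 0.17) and *Myog* at -0.74 (SE 0.15). Of all genes tested, 2.60% were called lower in WT and 3.74% in KO. WT *Pax7* had a log2 fold change of -0.65 (SE 0.15, edgeR adjusted *P*=0.0142) and WT *Myf5* of -0.41 (SE 0.13, edgeR adjusted *P*=0.0482) over the same interval. Some of these calls rested on single libraries. The WT call of *Myog* was lost without WT replicate 1 or 2 at P14 (edgeR adjusted *P*=0.0109 and 0.0101), and the KO call of *Myog* was lost without any 1 of 7 of the 8 libraries, with edgeR adjusted *P*-values up to 0.0287. The KO call of *Myog* was also lost with library totals, with all 32 libraries in 1 fit and with the replicate block.

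From P21 to P35 none of the 6 genes was called in either genotype by edgeR, where 2.45% of all genes were called in WT and 4.01% in KO. At an unadjusted edgeR *P*-value under 0.05 there were 2 of 6 in WT and 4 of 6 in KO. Over all genes tested, 5174 of 15039 in WT and 6096 of 15734 in KO were under that value. DESeq2 called 0 of the 6 in WT and 3 in KO, and its share of all genes is not given here. *Myog* had a log2 fold change of 0.86 (SE 0.22, edgeR adjusted *P*=0.0225) in KO and of -0.16 (SE 0.28, edgeR adjusted *P*=0.708) in WT. *Pax7* had -0.89 (SE 0.19, edgeR adjusted *P*=0.0122) in KO and -0.38 (SE 0.11, edgeR adjusted *P*=0.0373) in WT.

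Levels of different genes can be set side by side only per length of transcript, in CPM per kb of exon. At P1 *Myog* led in both genotypes, with 75.3 ± 9.13 (SD, n=4) CPM per kb in WT and 83.0 ± 14.7 in KO. *Myf6* and *Mymk* followed with overlapping libraries (in KO *Mymk* also overlapped with *Myod1*), then *Myod1*, *Myf5* and *Pax7*. From P14 on *Myf6* was the highest in both genotypes, with 69.4 ± 6.03 CPM per kb in WT and 115 ± 19.9 in KO at P35. The order below it differed between the genotypes at P21 and P35. In WT at P21 and P35 *Myod1* came next (12.2 ± 3.34 and 14.4 ± 2.40) and overlapped with *Myog* (9.94 ± 3.38 and 8.98 ± 2.98). In KO *Myog* came next, overlapping with *Myod1* at P21 (25.2 ± 2.75 against 24.9 ± 5.84) and clear of it at P35 (45.2 ± 16.4 against 21.2 ± 5.05). *Pax7* was last in every group, at 0.891 ± 0.0811 CPM per kb in WT and 0.325 ± 0.0617 in KO at P35, and it overlapped with *Myf5* in both genotypes at P14 and in WT at P21 and P35. That rank depends on the exon length used, 5860 bases for *Pax7* and 2083 for *Myf5*. In mean CPM at P35 *Pax7* was above *Myf5*, at 5.22 against 2.13 in WT and 1.90 against 1.24 in KO.

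The ratio of *Myog* to *Pax7* within a library does not depend on how libraries are scaled against each other, and it was added after the other results were known. In WT this ratio of CPM values lay between 7.86 and 8.91 at P1, between 3.86 and 5.88 at P14, between 1.43 and 3.08 at P21 and between 2.11 and 3.63 at P35. In KO it lay between 8.75 and 13.5 at P1, between 5.45 and 7.54 at P14, between 7.75 and 13.4 at P21 and between 18.4 and 70.4 at P35. The KO and WT ratios did not overlap at P21 or at P35, and those of KO at P35 were above those of every other group. The ratio of *Myog* to *Myod1* was 0.365 to 0.656 in WT and 1.15 to 2.34 in KO at P35, whereas at P21 it was 0.444 to 0.777 in WT and 0.601 to 1.12 in KO, with overlap.

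**Figure D3:**
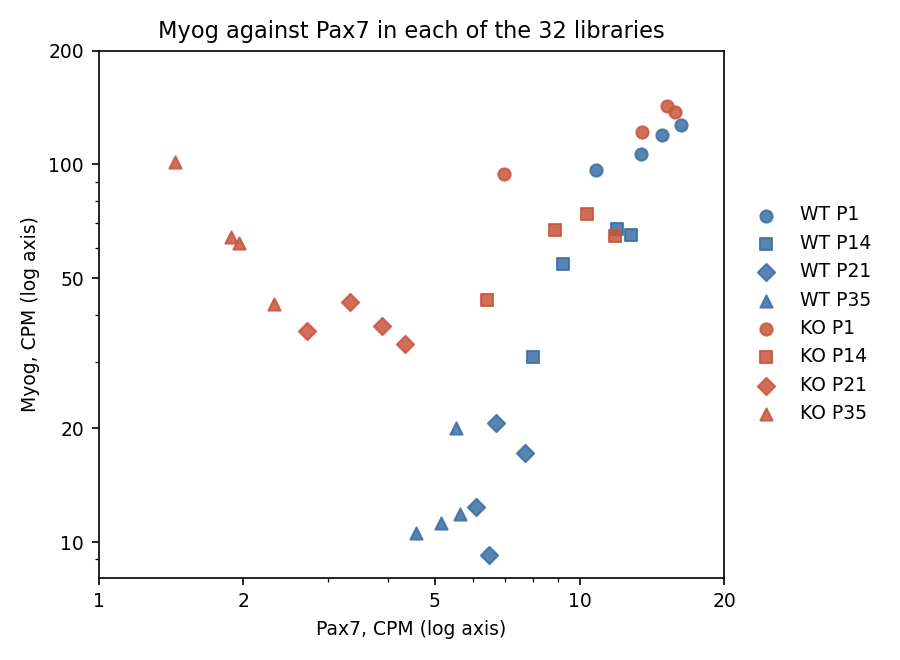
*Myog* against *Pax7* in CPM, both on log axes, with 1 point per library (blue for WT, red for KO, the marker shape giving the age). WT libraries run from high values of both genes at P1 to lower values of both at P21 and P35, and KO libraries at P35 sit at the upper left with *Myog* of 42.6 to 101 CPM and *Pax7* of 1.44 to 2.32 CPM.

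Across the 16 libraries of P21 and P35, log2 CPM of *Myog* had Pearson's r of -0.88 with *Pax7*, 0.80 with *Myf6* and 0.73 with *Myod1*. *Pax7* had 0.78 with *Myf5*. These libraries share genotype and age, so the values describe how the groups lie and not a relation within them. Over all 32 libraries r was 0.35 between *Myog* and *Pax7* and 0.86 between *Myog* and *Mymk*. The genes most like each of the 6 were sought among 18583 genes by the same measure. Over the 32 libraries *Mymx*, the small partner of *Mymk* in fusion, was the most like *Myog* (r=0.97), followed by *Gm12408* and *Atxn10* (both 0.96). Over the 16 late libraries they were *Relb*, *Cd82* and *Bid*, with r from 0.96 to 0.97.

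For *Pax7* the most similar genes were *Pxdn*, *Sptan1* and *Adamts9* over 32 libraries (r from 0.95 to 0.96) and *Klhdc3*, *Mlxip* and *Cs* over the late 16 (0.97 to 0.98). For *Myf5* they were *Col6a6*, *Tm6sf1* and *Sbf2* (all 0.97) and, late, *Vars2*, *Abhd18* and *Fbh1* (0.91 to 0.93). *Myod1* had no gene as close, with *Dll1*, *Ncbp2* and *Vps26c* at 0.76 to 0.80 and, late, *Dnaja1*, *Hes6* and *Bcl10* at 0.86 to 0.89. *Myf6* was followed most closely by *Csnk1g2*, *Nsfl1c* and *Nmt1* (0.94 to 0.95) and, late, by *Agap3*, *Ctxn3* and *Zfp771* (0.95 to 0.96). *Mymk* was followed by *Spg21*, *Kcnk13* and *Dbn1* (0.96 to 0.98) and, late, by *Irgm1*, *Lilra5* and *Spg21* (0.88 to 0.93).

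Further genes of the same pathway were read from 6 lists with 88 genes in all. Their calls come from fits without the replicate block, at P14 too. In these fits 3.18% of all genes tested were called higher and 1.50% lower at P21, and 8.49% and 7.52% at P35. Of 16 other satellite cell genes, none was called at P1 or P14, where 0 and 5 had an unadjusted edgeR *P*-value under 0.05. Over all genes tested there were 1978 of 18100 such genes at P1 and 1072 of 15728 at P14. At P21, 3 were called lower and 2 higher, with a list median of -0.28 on the log2 scale against 0.01 for all genes tested. At P35, 8 were called lower and 2 higher, with a median of -0.66 against 0.04 for all genes. The genes called lower most strongly at P35 were *Calcr*, the calcitonin receptor of quiescent satellite cells (log2 fold change -3.15, SE 0.33), *Chrdl2* (-2.50, SE 0.59), the FGF receptor *Fgfr4* (-1.37, SE 0.24) and the chemokine receptor *Cxcr4* (-1.23, SE 0.26). *Calcr*, *Chrdl2* and *Fgfr4* were also the 3 called lower at P21, at -2.11 (SE 0.32), -1.84 (SE 0.25) and -1.06 (SE 0.21).

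*Calcr* was 0.973 to 1.35 CPM in WT and 0.0534 to 0.184 CPM in KO at P35, the latter from 3 to 11 counts per library. The genes of this list called higher were the laminin receptor subunit *Itga7* at both ages, *Spry1* at P21 and *Sdc4* at P35, and *Itga7* is also made by fibres. *Itga7* had log2 fold changes of 0.73 (SE 0.05) at P21 and 0.74 (SE 0.13) at P35. *Cdh15*, the M-cadherin of satellite cells, and *Vcam1* were not called at either age. Scaling by library totals, in which the median of all genes moved to 0.44 at P35, left 2 of the 16 genes called lower and 2 called higher at that age, with a list median of -0.26. Of 5 endothelial markers, none was called at P21 and 2 were called lower at P35. Their summed level was 417 to 509 CPM in KO against 533 to 816 CPM in WT at P21 and 272 to 339 against 310 to 578 CPM at P35, and *Cxcr4* and *Notch3* are also known from vessels. The part of these cells in the satellite cell counts was not tested.

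The list of genes that myogenic factors switch on in differentiating muscle held more genes called higher than lower in KO at P21 and P35. Of 20 genes, 1 was called higher at P14, 9 were called higher and 1 lower at P21, and 13 higher and 1 lower at P35. Over all genes tested, 0.0254% were called higher at P14. The list medians were 0.32, 0.97 and 1.65 on the log2 scale against 0.00, 0.01 and 0.04 for all genes, and at P1 none was called. At an unadjusted edgeR *P*-value under 0.05 there were 1 of 20 at P1 and 9 of 20 at P14. Over all genes tested there were 1978 of 18100 at P1 and 1072 of 15728 at P14. The gene called at P14 was *Myl4*, an embryonic myosin light chain, at 13.6 to 16.3 CPM in WT and 26.7 to 33.1 CPM in KO. The highest values at P35 were those of *Myh3*, the embryonic myosin heavy chain (log2 fold change 4.16, SE 0.34), *Cdkn1a*, the cell cycle inhibitor p21 (3.83, SE 0.36), *Runx1* (3.15, SE 0.22) and *Myl4* (3.10, SE 0.44).

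*Myh3* was 4.20 to 6.67 CPM in WT and 47.8 to 142 CPM in KO at P35. At P21 *Cdkn1a* was 21.8 to 30.0 CPM in WT and 202 to 334 CPM in KO, which gave 3.38 (SE 0.19) on the log2 scale, and the value of *Runx1* was 2.81 (SE 0.24). *Actc1*, the cardiac actin, was the gene called lower at both ages, with log2 fold changes of -3.35 (SE 0.39) at P21 and -2.78 (SE 0.55) at P35. *Cdkn1a*, *Runx1* and the acetylcholine receptor subunits of this list also answer to signals other than myogenic factors, such as p53 or loss of nerve input. The study's own text discusses some genes of these lists on the same samples, so the counts are not independent evidence. Among the named genes of all lists, *Calcr*, *Spry1*, *Itga7*, *Jam2*, *Cd81*, *Stab2*, *Msc*, *Bhlhe41*, *Hdac4*, *Dach2*, *Myh3*, *Myl4*, *Cdkn1a*, *Runx1*, *Actc1*, *Cdh15*, *Vcam1*, *Notch3*, *Tcf12*, *Mki67*, *Top2a* and *Plk1* overlap another annotated gene. Whether counting used the strand is not given in the sources used here, so their values are uncertain to that extent.

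**Figure D4:**
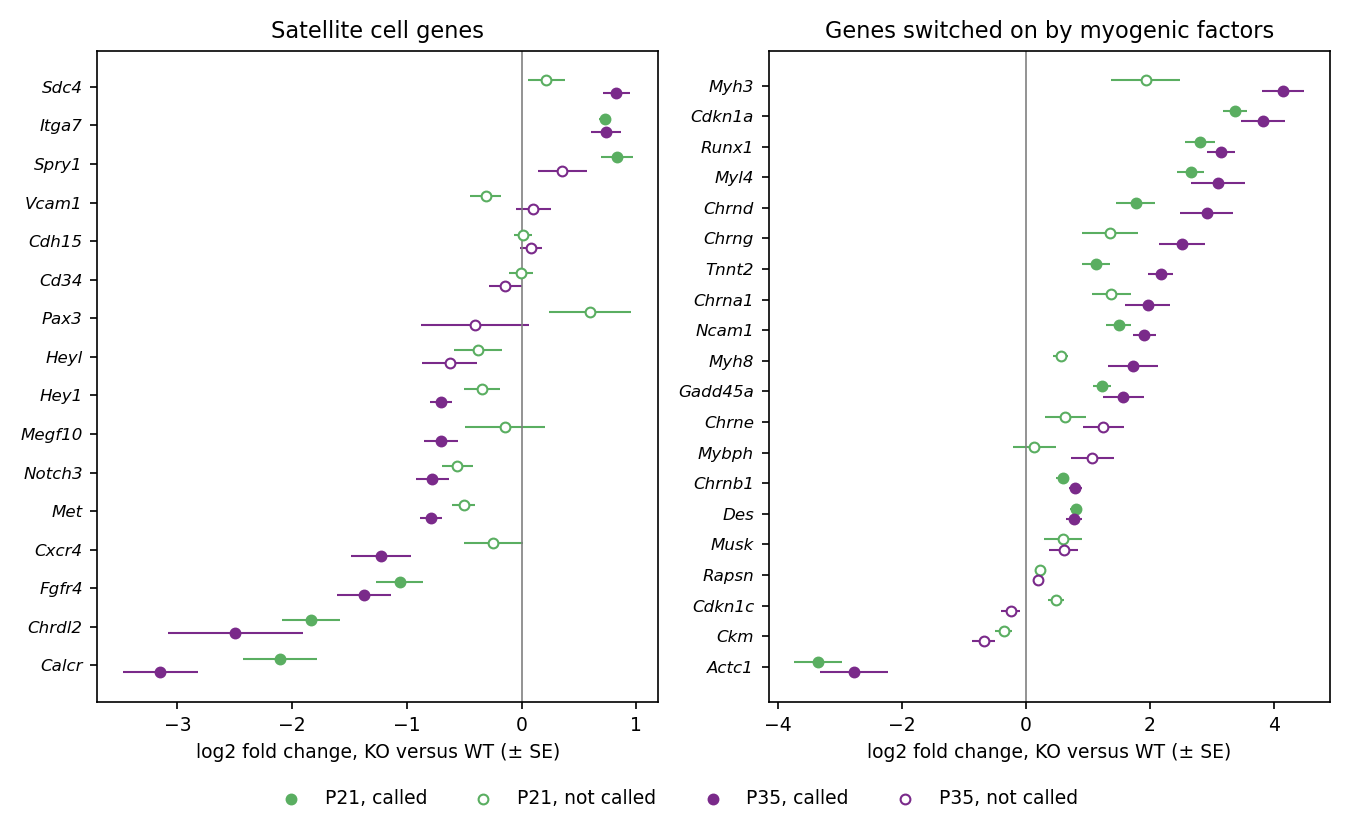
Log2 fold change between KO and WT with its SE for 16 satellite cell genes (left) and 20 genes that myogenic factors switch on (right), at P21 in green and P35 in purple, filled where called and open where not. On the left 8 genes are called lower and 2 higher at P35, and on the right 13 are called higher and *Actc1* lower.

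Of the other fusion genes, 12 of 15 were tested at P21 and P35. *Mymx* was called higher at both ages, with log2 fold changes of 3.78 (SE 0.56) at P21 and 4.56 (SE 0.73) at P35. It was 0.0475 to 0.468 CPM in WT at P35, from 2 to 20 counts per library, and 1.55 to 13.0 CPM in KO. *Cd81*, a tetraspanin, was also called higher at P35 (log2 fold change 0.75, SE 0.11), and *Stab2* (log2 fold change -2.28, SE 0.30) and *Jam2* (-0.81, SE 0.17), which endothelial cells also make, were called lower. The list medians were -0.08 at P21 and 0.01 at P35, against 0.01 and 0.04 for all genes, of which 4.67% and 16% were called either way. With library totals 4 were called higher and 1 lower at P35. *Mymk* thus did not pass the test in libraries in which its partner *Mymx* did, and a difference between the pair was not tested.

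Among 11 E proteins and inhibitors, the partners that myogenic factors need and the proteins that block them, 1 was called higher and 1 lower at P21, and 4 higher and 1 lower at P35. The inhibitor *Mdfi* was called higher at both ages, with log2 fold changes of 1.09 (SE 0.18) and 1.81 (SE 0.41). At P35 *Id2* (1.35, SE 0.33), *Id1* (0.81, SE 0.13) and *Id3* (0.76, SE 0.14), which tie up E proteins, were also higher, and *Bhlhe41* (-0.75, SE 0.16) was lower. *Msc*, a repressor known from satellite cells and myoblasts, was lower at P21 (-0.98, SE 0.16) and was not called at P35 (-0.01, SE 0.18). The E proteins *Tcf3* and *Tcf12* themselves were not called at either age, with values from -0.08 to 0.15. The list medians were 0.27 at P21 and 0.50 at P35, against 0.01 and 0.04 for all genes, of which 4.67% and 16% were called either way. With library totals 2 were called higher and 1 lower at P21, and 5 higher and 0 lower at P35.

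Of 14 regulators of myogenic factor genes, 2 were called higher and 1 lower at P21 and 1 each way at P35. Over all genes tested, 4.67% were called either way at P21 and 16% at P35. *Dach2*, a repressor of *Myog* that is known to fall after denervation, was lower at both ages, with log2 fold changes of -2.85 (SE 0.49) and -2.95 (SE 0.44). It was 0.811 to 4.54 CPM in WT and 0.208 to 0.498 CPM in KO at P21. *Mef2c*, an activator of *Myog*, was higher at both ages with 0.62 (SE 0.07) and 0.61 (SE 0.11), and *Hdac4*, which acts upstream of *Dach2* after denervation, was higher at P21 with 0.73 (SE 0.10). The list medians were 0.04 at P21 and -0.10 at P35, against 0.01 and 0.04 for all genes. With library totals 4 were called higher and 1 lower at P35. In none of the fusion, E protein and regulator lists was a gene called at P1 or P14, where at most 1, 1 and 3 genes had an unadjusted edgeR *P*-value under 0.05.

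Of 12 proliferation genes, none was called at any age by edgeR, and at an unadjusted *P*-value under 0.05 there were 0 of 12 at P1, P14 and P21 and 1 of 12 at P35. Over all genes tested there were 1978 of 18100 at P1, 1072 of 15728 at P14, 5329 of 15179 at P21 and 7848 of 15595 at P35. Their log2 fold changes ran from -0.77 for *Mki67* to -0.06 for *Plk1* at P21 and from -0.14 for *Top2a* to 0.83 for *Birc5* at P35, with medians of -0.32 and 0.26. The SEs were wide, from 0.27 for *Rrm2* to 0.51 for *Ccna2* at P21 and from 0.20 for *Rrm2* to 0.40 for *Cdk1* at P35. The lack of a call therefore does not show that these genes were unchanged.

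Markers of other cell types were read in the same libraries, where 4.67% of all genes tested were called either way at P21 and 16% at P35. Of 5 macrophage markers, 2 were called higher at P21 and 3 at P35, with a summed level of 42.3 to 54.6 CPM in KO against 28.5 to 33.3 CPM in WT at P21 and 42.1 to 61.3 against 28.2 to 35.4 CPM at P35. At P35, 2 of 3 adipocyte markers were called higher (11.7 to 45.7 CPM in KO against 1.87 to 7.93 CPM in WT), 1 of 4 smooth muscle and pericyte markers lower (778 to 893 against 968 to 1309 CPM) and 1 of 8 myofibre markers lower (79605 to 113878 against 124654 to 183248 CPM). The smooth muscle and pericyte markers summed to 851 to 967 CPM in KO and 1077 to 1316 CPM in WT at P21, with none called. No marker was at 0 in these late groups apart from 1 keratinocyte marker in each genotype at P21. None of 5 fibro-adipogenic progenitor, 4 Schwann cell or 3 tenocyte markers was called at P21 or P35, and none of the erythroid and keratinocyte markers that passed the count filter was (3 of 4 and 1 of 4 at P35). At an unadjusted edgeR *P*-value under 0.05 there were 4 of 5, 0 of 4 and 1 of 3 at P21 and 2 of 5, 4 of 4 and 1 of 3 at P35. Over all genes tested there were 5329 of 15179 at P21 and 7848 of 15595 at P35. The part of these other cells in the differences of the 6 genes was not tested.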

How the data were processed

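RNA-seq of TA muscle was deposited as 1 table of expected counts per gene for 32 libraries, which the authors made from paired-end reads of a strand-specific poly(A) kit. The submitters' processing notes name STAR 2.6.1, RSEM 1.2.22 and DESeq2, the study's methods name HTSeq, and the build is mm10 (GRCm38). The annotation release and the strand setting are not given in the sources used here. Of the values, 4.26% were not whole, and all were rounded. Totals were 49321035 to 85631408 per library, no column was left out, and no pair of replicates agreed within sampling noise (lowest chi-square per gene 9.8). Symbols, coordinates and exon lengths came from GENCODE M21, which gave a symbol for 54809 of 54838 identifiers, and promoters came from RefSeq (GRCm38.p6).

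Genes were filtered with filterByExpr and scaled by TMM, and glmQLFit and glmQLFTest of edgeR 4.0.16 (R 4.3.3) were run on the 8 libraries of each comparison, with *P*-values adjusted by Benjamini-Hochberg over every gene tested (18100, 15728, 15179 and 15595 at P1, P14, P21 and P35). Calls needed an adjusted *P*-value under 0.01 together with a change of over 1.5-fold. Interactions used all 32 libraries (18583 genes) and the adjusted *P*-value alone. Printed CPM values were scaled over all 32 libraries, whereas tests were scaled within a comparison, so a ratio of mean CPM differs slightly from the fitted fold change. The scripts were tested on simulated data, and tables and plots used Python 3.11.15 with numpy 2.4.6, pandas 2.3.3 and matplotlib 3.10.9.

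Alternatives were DESeq2 1.42.0, calls by both tools, RLE size factors, library totals, no filter, at least 10 counts in every library, a fit of all 32 libraries, the replicate number as a block, an adjusted *P*-value under 0.05 with no minimum fold change, a table without the genes of the mitochondrial genome, and each library left out in turn. The interaction of P35 against P14, the ratios within a library and the lists under other scalings were added after seeing the data. Nothing in the labels says that replicate numbers mark a litter or a day. At P14 the deviations of same-numbered libraries from their group means correlated in all 4 pairs (r from 0.19 to 0.59). The numbers were therefore taken to pair those libraries, and at the other ages they were not. The tests printed for P14 still left the pairing out, except where the replicate block is named. None of the 6 genes was called at P14 in any of the 10 alternatives, of which the block was 1.

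The 6 genes and all lists were chosen with earlier results of these data known. Besides the 6 genes and *Mtm1*, the text names from each list the 4 called genes with the largest absolute log2 fold change at P35, the 3 at P21 and any at P14, and the 3 genes most like each of the 6. *Itga7*, *Spry1*, *Sdc4*, *Cdh15*, *Vcam1*, *Notch3*, *Bhlhe41*, *Tcf3*, *Tcf12* and the proliferation genes were named after their values were seen. Each library was taken to come from 1 mouse, and on that reading *P*-values cover the spread between mice.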

Additional observations from a re-analysis of the deposited data

Results flagged for a closer look

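Among the 48 sets of 4 libraries (6 genes in 8 groups), 3 had 1 library far from the other 3, where chance gives about 1 in 20 sets. *Myog* in WT replicate 2 at P35 was 20.1 CPM, against 10.5 to 11.9 CPM in the other WT libraries of that age. *Myf5* in WT replicate 3 at P35 was 3.58 CPM, against 1.50 to 1.80 CPM, and without this library its log2 fold change between KO and WT at P35 was -0.39. *Mymk* in KO replicate 4 at P1 was 30.9 CPM, against 49.1 to 52.8 CPM, and this library was the lowest of its group for all 6 genes.

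The KO difference was not the same at P14 and P35 for *Myog*, where it grew by 2.13 on the log2 scale (edgeR adjusted *P*=1.90e-04), and for *Pax7*, where it moved by -1.30 (edgeR adjusted *P*=0.00358). The value for *Pax7* missed the threshold with library totals (-0.96, edgeR adjusted *P*=0.0243) and without KO replicate 3 at P35 (-1.19, edgeR adjusted *P*=0.0114). This comparison was chosen after the other results were known. Every KO library was above every WT library for *Myog* and below for *Pax7* at P35, and the genotypes overlapped at P14.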

How the results depend on the processing

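Of 1972 values under the alternatives and with single libraries left out, 1820 kept their direction, their side of the threshold or their size. *Myog*, *Myf6* and *Pax7* at P35 stayed called in all 10 alternatives. At P21, 5 of the 6 genes were called with DESeq2 and 5 at an adjusted *P*-value under 0.05 with no minimum fold change (below, the relaxed threshold), against 3. The share of all genes called with DESeq2 or at the relaxed threshold is not given here. Counts under these settings therefore do not set the 6 genes against other genes. *Myod1* at P21 passed with DESeq2 (1.02), library totals (1.22), no filter (1.03), at least 10 counts (1.04), all 32 libraries (1.03), the replicate block (1.04) and the relaxed threshold (1.04). *Myf5* at P21 passed with DESeq2 (-0.69) and the relaxed threshold (-0.67). *Myf6* at P21 was lost with RLE size factors (0.61), all 32 libraries (0.62) and the replicate block (0.63). At P35 *Myod1* passed with library totals (0.98) and the relaxed threshold (0.58), and *Myf5* with all 32 libraries (-0.78). From P14 to P21 in WT, 4 genes were called with DESeq2, 0 with the replicate block and 5 at the relaxed threshold, against 2. From P21 to P35, 1 was called in WT at the relaxed threshold against 0, and in KO 3 with DESeq2, 1 with all 32 libraries and 3 at the relaxed threshold against 0. With the replicate block the calls over all genes numbered 98 at P14 against 5, 634 at P21 against 709 and 2273 at P35 against 2496. Library totals moved the median of all genes to 0.20 at P21, 0.44 at P35, -0.85 and -0.81 for P14 against P1 in WT and KO, and 0.36 for the interaction of P35 against P14. They ended the calls of *Myf6* from P1 to P14 (0.026 in WT, 0.35 in KO) and of *Pax7* in that interaction (-0.96), and reversed *Myod1* from P1 to P14 (-0.46 in WT, -0.18 in KO) and, for the interactions, *Pax7* at P14 against P1 (0.00331) and *Myf5* at P35 against P21 (0.12), and they moved 20 of 48 group levels by more than 1 SD. With 1 library left out, log2 fold changes at P1 ran from -0.10 to 0.076 for *Myf5* and from -0.21 to 0.11 for *Pax7*. At P14 they ran from -0.00356 to 0.33 for *Myog*, -0.083 to 0.11 for *Myf5*, -0.17 to 0.23 for *Myf6* and -0.078 to 0.28 for *Mymk*. At P21 they ran from 1.18 to 1.54 for *Myog*, 0.91 to 1.23 for *Myod1*, -0.77 to -0.58 for *Myf5*, 0.53 to 0.71 for *Myf6* and -1.01 to -0.80 for *Pax7*, with 0 to 4 genes called, and at P35 from 0.44 to 0.71 for *Myod1*. Genes called from P14 to P21 numbered 1 to 4 in WT and 2 to 4 in KO, and from P21 to P35 in KO 0 to 1. From P21 to P35, *Myog* in WT ran from -0.42 to 0.055 and *Mymk* in KO from -0.10 to 0.40. The interactions ran from -0.14 to 0.19 for *Myog*, -0.049 to 0.16 for *Myf5* and -0.27 to 0.084 for *Pax7* at P14 against P1, and from -0.24 to 0.27 for *Myf5* at P35 against P21, and 1 to 2 genes were called at P35 against P14. The cause of these changes was not tested. *Myf5* and *Mymk* had few counts late on, which limits their precision.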
